A study of Mus musculus with 14 samples.

Results

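Mouse ovarian tumor cells that lack focal adhesion kinase (FAK, gene Ptk2) were compared with the same cells given back a FAK that cannot act as a kinase. The FAK-R454 line was represented by 2 samples and the FAK KO line by 3, which were 5 of the 14 samples in the series. The comparison covered every gene, in both directions. Of 35275 genes in the table, 11818 had a mean above 1 FPKM (fragment counts scaled by transcript length and library size) in at least 1 of these lines and were tested.

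FAK is a tyrosine kinase of integrin adhesion sites. It phosphorylates other proteins, and it also holds partners such as talin, paxillin and Src family kinases in place through regions outside its kinase domain. A lysine in the ATP pocket is needed for catalysis, and replacing it leaves a full-length protein with little or no activity. The pair of lines therefore asks what expression of kinase-dead FAK changes in cells without FAK.

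Every line descends from KMF, aggressive cells obtained by passage of ID8 mouse ovarian tumor cells in C57Bl6 mice. FAK KO is 1 clone of KMF (KT13) in which CRISPR/Cas9 cut Ptk2 near the start of its coding sequence. FAK-R454 is KT13 carrying a lentiviral GFP-FAK with the K454R substitution under a CMV promoter, selected with puromycin and enriched by flow sorting. FAK-WT was made in the same way with unmutated GFP-FAK and entered as 3 further samples for comparison. All cells were grown without drug as floating tumorspheres for 5 days. No KT13 line with an empty vector was analysed here, so effects of GFP-FAK-R454, of lentiviral insertion and of selection cannot be told apart. The samples of a line are repeats of 1 line, and the p-values measure the spread between those samples only.

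The codon that the R454 mutant changes lies in exon 17 of transcript Ptk2-201, at chr15:73268834-73268893 (GRCm38, minus strand, the bases shown), and is printed because it is the designed difference between the R454 and WT transgenes. Capitals mark the AAA lysine codon at bases 73268864 to 73268866, which the mutant protein replaces by arginine (K454R, counted from the first residue of the 1052 that this transcript encodes). The sequence is that of the reference genome, not of the transgene.
Ptk2 K454R site: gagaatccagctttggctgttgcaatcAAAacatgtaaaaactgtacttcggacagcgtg

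Ptk2 itself (ENSMUSG00000022607, chr15:73205105-73423191) read 59.2 and 65.5 FPKM in the FAK-R454 samples and 20.5, 17.6 and 18.9 FPKM in the FAK KO samples. Both FAK-R454 samples were above every FAK KO sample, by 3.29-fold on the means (log2 fold change 1.71, SE 0.084, limma adjusted p = 2.68e-05). The FAK-WT samples read 42.3, 42.5 and 45.4 FPKM, and Ptk2 was also higher in FAK-R454 than in FAK-WT (log2 fold change 0.52, SE 0.064, limma adjusted p = 0.0121). The value counts fragments from the edited endogenous alleles and from the transgene together, so it checks that the transgene is present, not that the knockout lacks protein. Ptk2b, which encodes the related kinase Pyk2, read 12.4 and 12.1 FPKM against 7.72, 9.47 and 8.44 FPKM in FAK KO and rose slightly (log2 fold change 0.52, SE 0.10, limma adjusted p = 0.00837), below the fold threshold, and did not pass when either FAK-R454 sample was left out.

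Between 26075863 and 31674402 fragments fell on genes in each of the 5 samples, recovered from the FPKM values, which were whole multiples of 1 fragment in 100% of cases (tolerance 0.01). The FAK-R454 pair differed by more than sampling noise (mean chi-square 3.81 per gene) and the FAK KO pairs by more still (9.34 to 26.0), so all were kept as separate samples. FAK KO replicate 3 had the lowest values of many glycolytic and hypoxia-induced genes, and FAK-WT replicate 3 the highest. Several results are also given without FAK KO replicate 3, and the losses without it are counted at the end. Against FAK-WT, no named gene lost its result without FAK-WT replicate 3, and 2 of 43 became stronger. Mitochondrially encoded genes took 0.979% and 1.01% of fragments in FAK-R454 and 1.65%, 1.18% and 1.21% in FAK KO. Genes of chromosome 15 had a median log2 difference of 0.14, and those of chromosomes 5, 18, 2 and 13 had -0.16, -0.14, -0.11 and -0.10. These shifts had the same sign and like size in both FAK-R454 samples. Their part in the results was not tested beyond centring each chromosome.

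Called genes had a limma adjusted p under 0.05, a log2 fold change of at least 1 in size and a mean above 1 FPKM in the higher line. By this rule 228 genes were higher in FAK-R454 than in FAK KO, 1.93% of those tested, and 96 were lower, 0.812%. Without a fold threshold 1156 genes (9.78%) passed upward and 1169 (9.89%) downward. The samples of the lines did not overlap for any called gene, against 25.4% of all genes tested not overlapping upward and 29.6% downward. The median log2 change of all genes tested was -0.028. A called gene with a mean under 1 FPKM in the lower line was tested only because of its level in the higher line. Counts of called list members include such genes, as do the shares over all genes tested. The called genes included 189 protein-coding genes upward and 77 downward, with median sizes of 1.42 and 1.27 on the log2 scale. A mean under 2 FPKM even in the higher line was found for 66 of the higher and 32 of the lower genes, where fold changes on the log2(FPKM + 0.1) scale understate the change. Leaving out FAK-R454 replicate 2 reduced the higher calls to 148, and leaving out any 1 of the other samples gave 164 to 256. The lower calls ran from 81 to 116. At any fold, 312 genes passed upward and 236 downward without FAK-R454 replicate 1, 335 and 274 without FAK-R454 replicate 2, 694 and 484 without FAK KO replicate 3 and 1931 and 2459 without FAK KO replicate 2, so the counts of passing list members in such fits stand against fewer or more passing genes overall. In these fits a lone FAK-R454 sample is assumed to vary like the other line.

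**Figure D1:**
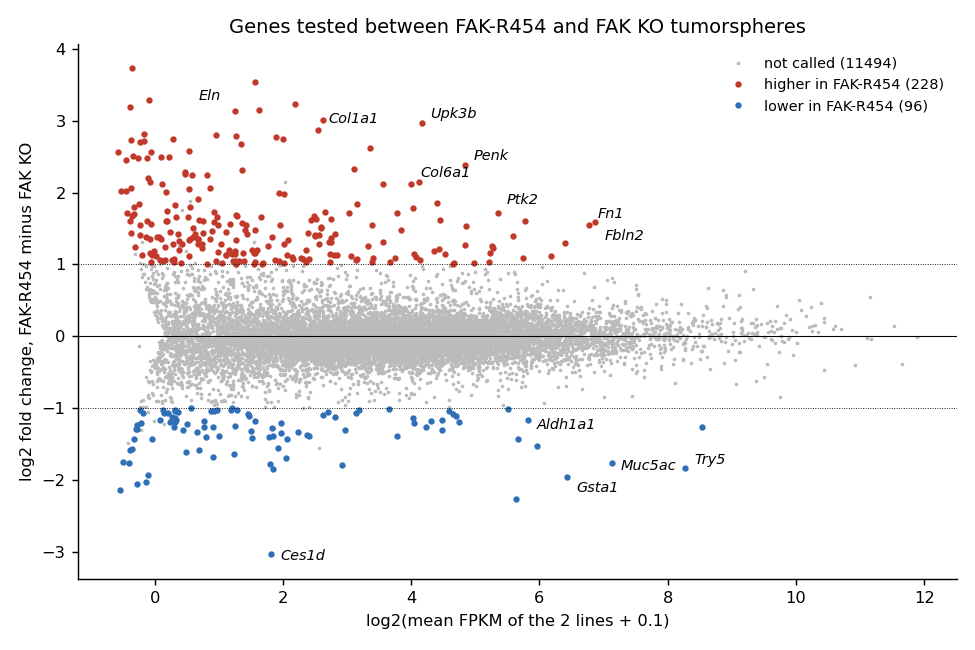
Each point is 1 of the 11818 tested genes, with its mean level (FPKM, log axis) on the x axis and the log2 fold change of FAK-R454 over FAK KO on the y axis. Colored points are the 228 called higher and the 96 called lower, and the higher calls reach further from 0 than the lower ones.

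The 15 largest changes each way were taken after leaving out symbols of predicted or unnamed gene models (Gm followed by digits, ending in Rik or containing -ps). The genes with the 15 largest increases so chosen included secreted, matrix and membrane proteins. Itm2a, an integral membrane protein, read 5.82 and 4.83 FPKM in FAK-R454 and 0.5904, 0.198 and 0.389 FPKM in FAK KO. Its log2 change was the largest of these 15 (log2 fold change 3.54, SE 0.33, limma adjusted p = 3.82e-04). Hsd11b1, the enzyme that regenerates active glucocorticoid, read 8.44 and 7.698 against 1.36, 0.6299 and 0.519 FPKM (log2 fold change 3.23, SE 0.32, limma adjusted p = 5.63e-04). Both genes were low in all 3 FAK KO samples and clearly present in both FAK-R454 samples. Rgma, a membrane-anchored guidance molecule and BMP coreceptor, read 5.21 and 5.71 against 0.648, 0.631 and 0.349 FPKM (log2 fold change 3.15, SE 0.24, limma adjusted p = 1.74e-04). Eln, which encodes elastin, read 4.38 and 3.95 against 0.283, 0.445 and 0.443 FPKM (log2 fold change 3.14, SE 0.22, limma adjusted p = 1.34e-04). Elastin is the core protein of elastic fibers. Angptl7, a secreted angiopoietin-like protein, read 11.2 and 10.6 against 1.19, 1.33 and 1.29 FPKM (log2 fold change 3.01, SE 0.11, limma adjusted p = 9.06e-06). The samples of each line lay close together for this gene. Upk3b, a uroplakin of mesothelial cells, read 31.1 and 32.03 against 3.72, 5.08 and 3.27 FPKM, 7.84-fold on the means (log2 fold change 2.96, SE 0.16, limma adjusted p = 4.30e-05).

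Slit3, a secreted ligand of Robo receptors, read 1.38 and 1.51 FPKM in FAK-R454 and 0.1398, 0.198 and 0.0478 FPKM in FAK KO (log2 fold change 2.82, SE 0.38, limma adjusted p = 0.00224). G0s2, an inhibitor of triglyceride lipolysis, read 4.11 and 2.48 against 0.355, 0.547 and 0.255 FPKM (log2 fold change 2.81, SE 0.31, limma adjusted p = 9.17e-04). The 2 FAK-R454 samples of G0s2 lay further apart than those of the genes before it, yet both exceeded every FAK KO sample. Fam84a, Wipf1, whose product binds the actin regulator WASP, and Unc45b, a myosin chaperone, also rose, with log2 changes of 2.79, 2.75 and 2.73. Unc45b stood near 1 FPKM in FAK-R454 and lost its call without FAK-R454 replicate 2. Fam19a5, a secreted chemokine-like protein, read 5.57 and 6.82 against 1.73, 1.19 and 0.222 FPKM, and its call (log2 fold change 2.78, limma adjusted p = 0.0179) was lost without either FAK-R454 sample. Its size rested on FAK KO replicate 3, without which the log2 change was 2.03. The remaining members of the 15 largest increases were the collagen genes Col1a1 and Col6a2, described with the matrix, and RP23-298I7.4, which rested on 5 and 6 fragments in FAK-R454 and 1, 0 and 0 in FAK KO and is given no fold.

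**Figure D2:**
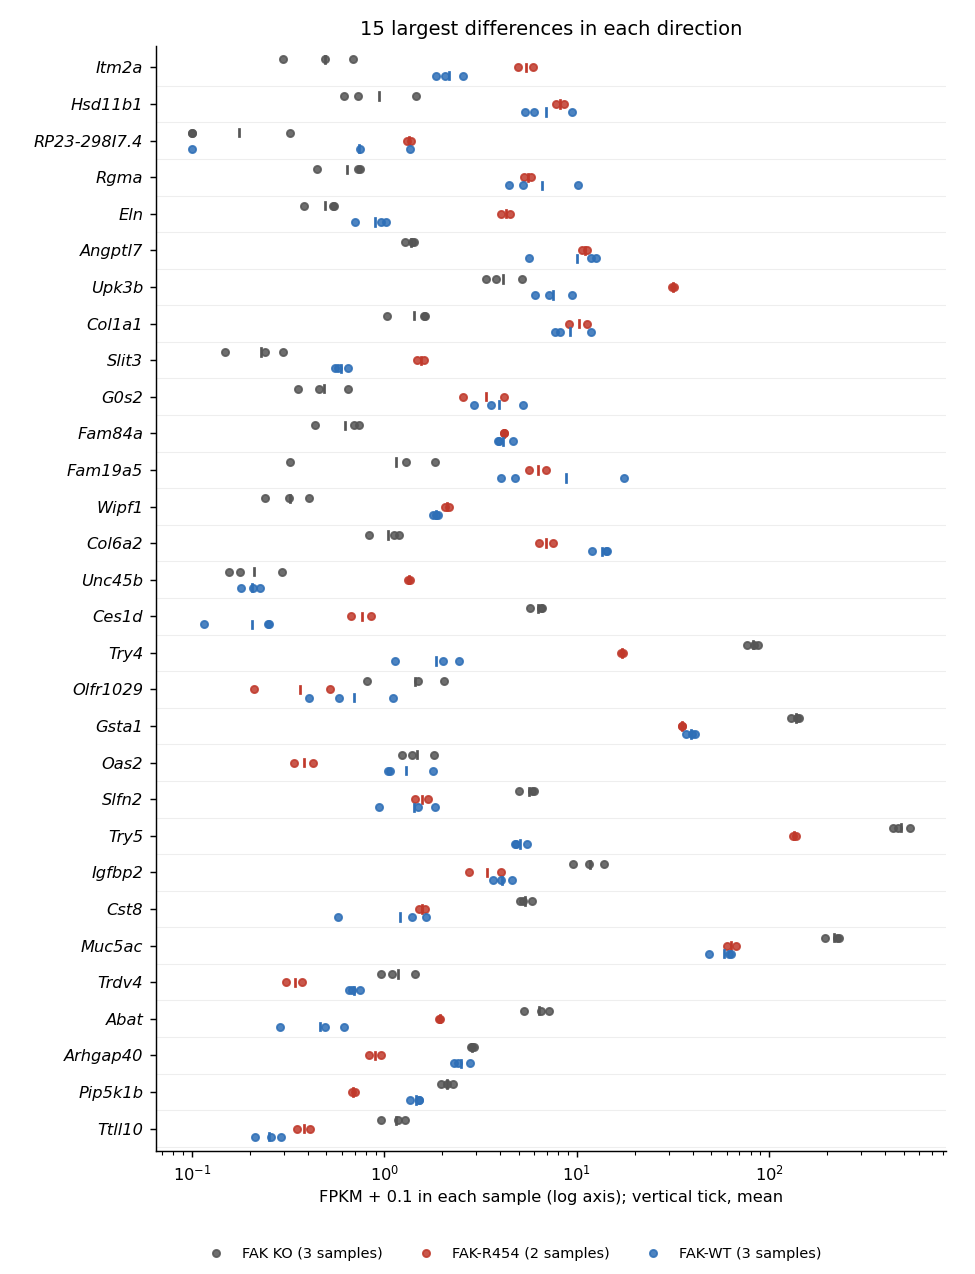
FPKM + 0.1 (log axis) of the genes with the 15 largest increases and 15 largest decreases, 1 point per sample and a tick at the mean, for FAK-R454, FAK KO and FAK-WT. Symbols of predicted or unnamed gene models were left out. FAK-R454 and FAK KO points do not overlap in any of these genes, whereas FAK-WT lies near FAK-R454 in Muc5ac and Gsta1 and far from both lines in Try5.

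The 15 largest decreases had log2 changes from -3.04 to -1.58. Ces1d, a carboxylesterase, read 0.575 and 0.756 FPKM in FAK-R454 and 6.497, 5.61 and 6.38 FPKM in FAK KO (log2 fold change -3.04, SE 0.14, limma adjusted p = 2.59e-05). The trypsin genes Try4 and Try5 also fell, Try4 to 16.9 and 17.3 from 76.3, 87.2 and 83.7 FPKM (log2 fold change -2.26, SE 0.073, limma adjusted p = 7.51e-06), and Try5 read 138 and 132 against 442, 538 and 467 FPKM (log2 fold change -1.83, SE 0.088, limma adjusted p = 2.59e-05). Trypsin genes are near-identical copies and their fragments may have been shared between them, so the split between Try4 and Try5 is uncertain. Muc5ac, a gel-forming mucin, read 66.97 and 60.02 against 195, 226 and 229 FPKM (log2 fold change -1.77, SE 0.088, limma adjusted p = 2.68e-05). Gsta1, a glutathione S-transferase with close paralogs, read 35.1 and 35.04 against 139, 129 and 143 FPKM (log2 fold change -1.96, SE 0.066, limma adjusted p = 7.51e-06). Muc5ac and Gsta1 were abundant in every sample, and the fall was of like size in both FAK-R454 samples.

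Igfbp2, which binds insulin-like growth factors, read 2.65 and 3.96 FPKM in FAK-R454 against 9.48, 13.7 and 11.5 FPKM in FAK KO (log2 fold change -1.79, SE 0.19, limma adjusted p = 7.50e-04). Slfn2, a Schlafen family member, read 1.34 and 1.59 against 5.75, 5.88 and 4.94 FPKM (log2 fold change -1.84, SE 0.13, limma adjusted p = 1.25e-04), and Cst8, a cystatin-like protease inhibitor, 1.52 and 1.41 against 5.74, 5.15 and 4.98 FPKM (log2 fold change -1.78, SE 0.11, limma adjusted p = 8.71e-05). In each of these genes the highest FAK-R454 sample stayed below the lowest FAK KO sample. Abat, the enzyme that breaks down GABA, fell by 1.70 on the log2 scale, Arhgap40, a GTPase activating protein, by 1.68, Pip5k1b, a phosphoinositide kinase, by 1.61, and Ttll10, a tubulin ligase-like enzyme, by 1.58. Olfr1029, an olfactory receptor gene, read 0.111 and 0.421 against 1.94, 0.708 and 1.39 FPKM and lost its call (limma adjusted p = 0.0228) without FAK-R454 replicate 1 or FAK KO replicate 3. Its log2 change was -2.03, and -1.37 and -2.68 without FAK-R454 replicates 1 and 2. Trdv4, a T cell receptor gene segment, rested on 2 and 3 fragments against 9, 9 and 13 and is given no fold. Oas2, the last of the 15, is described with the interferon genes.

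Many genes for collagens and matrix glycoproteins, though not all, were higher in FAK-R454. Of 35 collagen genes listed, 17 were expressed above the filter, 8 of these were called higher and none lower, and 12 passed upward at any fold, where 1.93% of all genes tested were called higher and 9.78% passed upward. Their median log2 change was 0.98, against -0.028 for all genes tested. Fewer collagen genes passed at any fold without either FAK-R454 sample. Their median was 1.01 without FAK-R454 replicate 1 and 0.95 without FAK-R454 replicate 2. Of 32 genes for fibronectin, fibulins and matricellular proteins, 21 were tested, 11 were called higher and none lower, with a median of 1.09. Leaving out any 1 sample gave 6 to 9 called collagens and 10 to 12 called genes of the other list. Some of these genes passed the filter only through their level in FAK-R454, and with the filter set on the mean of all samples the collagen median was 0.66. In bulk samples, fewer cells of a type and less RNA per cell cannot be told apart.

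The called fibrillar collagens were Col1a1, Col3a1, Col5a1, Col5a3 and Col27a1, and Col1a2, Col5a2, Col11a1 and Col11a2 were under the filter in both lines. Col1a1, a chain of type I collagen, read 9.04 and 11.2 FPKM in FAK-R454 and 1.54, 1.51 and 0.928 FPKM in FAK KO (log2 fold change 2.86, SE 0.21, limma adjusted p = 1.42e-04). Col3a1 read 26.3 and 24.1 against 9.12, 6.16 and 6.68 FPKM (log2 fold change 1.79, SE 0.15, limma adjusted p = 2.55e-04), and Col5a1, which starts fibril assembly, 20.3 and 21.3 against 6.92, 7.195 and 4.91 FPKM (log2 fold change 1.72, SE 0.15, limma adjusted p = 3.04e-04). Both FAK-R454 samples exceeded every FAK KO sample in these 3 genes. Col5a3 rose from traces to 1.46 and 1.41 FPKM (log2 fold change 2.71, SE 0.40, limma adjusted p = 0.00337) and lost its call without FAK-R454 replicate 2. Col27a1, a fibrillar collagen of cartilage, reached 1.11 and 1.23 FPKM against 0.371, 0.328 and 0.3097 (log2 fold change 1.54, SE 0.25, limma adjusted p = 0.00503) and lost its call without either FAK-R454 sample.

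Type VI collagen forms beaded filaments around cells. Col6a1 read 27.3 and 24.3 FPKM in FAK-R454 and 5.39, 5.61 and 6.63 FPKM in FAK KO (log2 fold change 2.12, SE 0.11, limma adjusted p = 2.68e-05), and Col6a2 7.396 and 6.27 against 0.7303, 1.09 and 1.03 FPKM (log2 fold change 2.74, SE 0.18, limma adjusted p = 1.07e-04). Col6a3, a further chain, read 5.26 and 5.26 against 2.96, 3.47 and 3.48 FPKM and passed at a smaller size (log2 fold change 0.66, SE 0.11, limma adjusted p = 0.005304), a result lost without either FAK-R454 sample. FAK-WT exceeded FAK-R454 for both called chains. Its samples read 64.6, 69.5 and 68.8 FPKM for Col6a1, which was lower in FAK-R454 than in FAK-WT (log2 fold change -1.39, SE 0.068, limma adjusted p = 0.00128), and 14.3, 14.1 and 11.9 FPKM for Col6a2 (log2 fold change -0.96, SE 0.11, limma adjusted p = 0.00976). Thus Col6a1 in FAK-R454 stood between the other lines, apart from both. Col18a1, the basement membrane collagen that releases endostatin, read 9.74 and 10.5 FPKM against 3.47, 3.8 and 3.88 in FAK KO (log2 fold change 1.42, SE 0.091, limma adjusted p = 9.90e-05). Col17a1, a collagen of hemidesmosomes, had the lowest change of the list (-0.10) and its samples overlapped.

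Fn1, fibronectin, the integrin ligand that organises early matrix, read 155 and 170.2 FPKM in FAK-R454 and 60.7, 59.2 and 47.3 FPKM in FAK KO, 2.92-fold on the means (log2 fold change 1.55, SE 0.11, limma adjusted p = 1.35e-04). Fbln2, a fibulin that links fibronectin and elastic fibers, read 171 and 179 against 61.6, 61.6 and 51.2 FPKM (log2 fold change 1.60, SE 0.09, limma adjusted p = 5.72e-05). These were the most abundant genes of the group to rise. Tnc, tenascin C, read 7.85 and 8.295 against 2.91, 2.32 and 2.48 FPKM (log2 fold change 1.62, SE 0.12, limma adjusted p = 1.42e-04) and Thbs1, thrombospondin, 8.21 and 8.78 against 2.61, 2.85 and 2.59 FPKM (log2 fold change 1.63, SE 0.10, limma adjusted p = 6.82e-05). Bgn, the small proteoglycan biglycan, read 123 and 117 against 53.2, 44.8 and 49.1 FPKM (log2 fold change 1.29, SE 0.081, limma adjusted p = 8.66e-05). The ranges of both lines were narrow and far apart for all 5 genes.

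Emilin1 and Emilin2, glycoproteins of elastic fibers, changed by 1.09 and 1.34 on the log2 scale, Matn2, a matrilin, by 1.21, and Ctgf (also Ccn2) by 1.13. Wisp2 (also Ccn5) rose from a low level to 1.22 and 0.937 FPKM (log2 fold change 2.03, SE 0.37, limma adjusted p = 0.007803), a call lost without FAK-R454 replicate 2, while without replicate 1 its mean was under the filter. Wisp1 (also Ccn4) stopped just short of the fold threshold, at 9.45 and 10.3 against 5.38, 4.52 and 4.88 FPKM (log2 fold change 0.99, SE 0.10, limma adjusted p = 5.39e-04). The only member of the list to fall was Tnxb, tenascin X, at 12.5 and 13.3 FPKM against 15.9, 19.6 and 19.2 (log2 fold change -0.49, SE 0.10, limma adjusted p = 0.0131), which did not pass without either FAK-R454 sample or without FAK KO replicate 3.

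**Figure D3:**
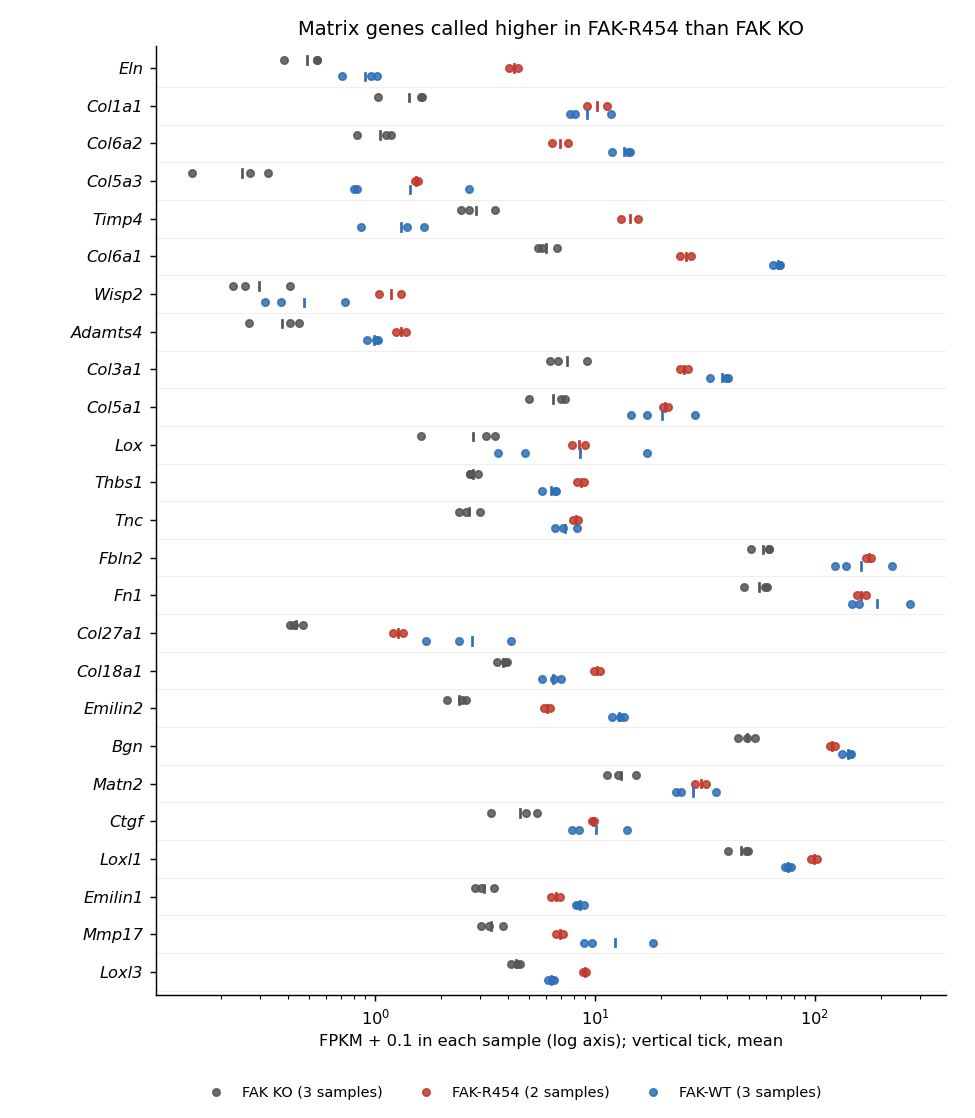
FPKM + 0.1 (log axis) of the called collagen, matrix glycoprotein, protease, inhibitor and crosslinker genes, 1 point per sample and a tick at the mean, for FAK-R454, FAK KO and FAK-WT. In each gene both FAK-R454 points lie above all 3 FAK KO points, and FAK-WT points lie above FAK-R454 for Col6a1, Col6a2 and Emilin2 and below it for Eln.

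Lysyl oxidases, which crosslink collagen and elastin, were among the called genes of the next list. Of 45 genes for matrix proteases, their inhibitors and crosslinkers, 32 were tested and 6 were called higher and none lower, with a median of 0.20. Over all genes tested, 1.93% were called higher and 0.812% lower. Among the called genes, Adamts4 was tested only because of its level in FAK-R454. The higher count was 3 without FAK-R454 replicate 2 and 5 or 6 without any other sample, and the lower count was 2 without FAK-R454 replicate 1 and 1 without FAK KO replicate 2. Loxl1, a lysyl oxidase needed for elastic fibers, read 96.1 and 102 FPKM in FAK-R454 against 39.9, 49.2 and 48.3 FPKM in FAK KO (log2 fold change 1.12, SE 0.10, limma adjusted p = 2.64e-04). Loxl3 read 9.02 and 8.71 against 4.31, 4.06 and 4.45 FPKM (log2 fold change 1.04, SE 0.086, limma adjusted p = 2.14e-04), and Lox 7.75 and 8.87 against 3.397, 3.11 and 1.52 FPKM (log2 fold change 1.67, SE 0.29, limma adjusted p = 0.00684). The FAK KO samples of Lox ranged widely, with replicate 3 lowest, and its call was lost without FAK-R454 replicate 2. The other lysyl oxidase genes were looked up after the called ones were seen. Loxl2 passed below the fold threshold (log2 fold change 0.82, limma adjusted p = 0.0222), and Loxl4 had a log2 change of -0.39 and did not pass (limma adjusted p = 0.0517).

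Timp4, a metalloproteinase inhibitor, had the largest change of this list, from 2.35, 3.41 and 2.57 FPKM in FAK KO to 12.97 and 15.5 FPKM in FAK-R454 (log2 fold change 2.33, SE 0.16, limma adjusted p = 1.18e-04). Mmp17, a membrane-bound metalloproteinase, read 6.52 and 7.08 against 2.92, 3.71 and 3.2 FPKM (log2 fold change 1.04, SE 0.12, limma adjusted p = 0.00106) and fell under the fold threshold without FAK-R454 replicate 2 or FAK KO replicate 1. Adamts4, an aggrecan-cleaving enzyme, read 1.28 and 1.14 against 0.3103, 0.166 and 0.35 FPKM (log2 fold change 1.84, SE 0.32, limma adjusted p = 0.00661), and this call was lost without either FAK-R454 sample. In the other direction, Mmp13, a collagenase, read 7.59 and 6.24 against 15.5, 10.01 and 13.8 FPKM and passed below the fold threshold (log2 fold change -0.90, SE 0.17, limma adjusted p = 0.0107), though not without FAK-R454 replicate 2.

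No gene for an integrin or a laminin was called, where 1.93% of all genes tested were called higher and 0.812% lower. For lists this short, an absence of calls is near that background. Of 25 integrin genes, 12 were tested, none was called, 2 passed upward and 1 downward, and the median was 0.15. With 9.78% of all genes tested passing upward and 9.89% downward, such counts of a short list are near the background. Itga5, the alpha chain of the fibronectin receptor, read 60.2 and 57.2 FPKM in FAK-R454 and 30.5, 33.8 and 31.7 FPKM in FAK KO (log2 fold change 0.87, SE 0.069, limma adjusted p = 1.95e-04). Itga6, a laminin receptor chain, moved the other way, at 151 and 161 against 215, 194 and 210.4 FPKM (log2 fold change -0.41, SE 0.069, limma adjusted p = 0.00645), which was lost without FAK-R454 replicate 1. Itga10, a collagen receptor chain, read 5.18 and 5.52 against 3.8, 3.802 and 4.2 FPKM (log2 fold change 0.43, SE 0.10, limma adjusted p = 0.01798) and was lost without either FAK-R454 sample. Laminins, nidogens and related genes had 7 tested members, 1 passing in each direction, also near the background, and none called, and none passed downward without either FAK-R454 sample. Lamb1 read 39.6 and 41.01 against 27.1, 25.4 and 25.5 FPKM (log2 fold change 0.63, SE 0.065, limma adjusted p = 6.42e-04), whereas Lamb2 read 83.5 and 83.2 against 99.7, 114 and 114 FPKM (log2 fold change -0.39, SE 0.075, limma adjusted p = 0.0107, lost without either FAK-R454 sample).

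All 7 tested glypicans and syndecans passed, 5 upward and 2 downward, with none reaching the fold threshold in the complete data, where 9.78% of all genes tested passed upward and 9.89% downward. The syndecans Sdc3 (31.1 and 33.2 against 15.7, 18.9 and 14.7 FPKM, log2 fold change 0.97, SE 0.11, limma adjusted p = 8.16e-04) and Sdc1 (76.96 and 73.6 against 46.4, 52.3 and 47.4 FPKM, log2 fold change 0.63, SE 0.072, limma adjusted p = 0.00107) rose. Gpc4, a glypican that presents growth factors, fell from 103, 104 and 108 FPKM to 64.2 and 65.9 FPKM (log2 fold change -0.69, SE 0.059, limma adjusted p = 2.60e-04), while Gpc6 was higher (0.80, limma adjusted p = 0.0349). Without FAK-R454 replicate 1 or 2, or without FAK KO replicate 3, only 2 of these genes passed upward, and Gpc6 was not one of them. Among 30 tested genes for FAK and its adhesion partners, Ptk2 and the talin gene Tln2 (5.86 and 6.06 against 2.98, 2.899 and 2.47 FPKM, log2 fold change 1.08, SE 0.11, limma adjusted p = 7.06e-04) were called higher, where 1.93% of all genes were, and the median was -0.02. Tln2 fell just under the fold threshold without FAK KO replicate 3. The Src family kinase gene Yes1 had the lowest change (log2 fold change -0.43, SE 0.11, limma adjusted p = 0.0345), which did not pass without either FAK-R454 sample or FAK KO replicate 3.

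Defining markers of leukocytes were at or near 0 in both lines. The 7 leukocyte markers summed to 0.0111 and 0.00672 FPKM in FAK-R454 and 0.0424, 0.0561 and 0.0887 FPKM in FAK KO, with Ptprc and Cd3e at 0 in all 5 samples. Of 4 endothelial markers, Kdr was at 0 in all 5 samples and Cdh5 under 0.01 FPKM. Pecam1 was above the filter and did not pass (log2 fold change -0.22). Tek, the angiopoietin receptor, read 16.8 and 16.4 FPKM against 18.1, 16.6 and 17.5 FPKM. Of 5 fibroblast markers, Col1a1 and Pdgfra were called higher, Pdgfrb was at 0 in all 5 samples and Dpt was at most 0.347 FPKM. Dcn, decorin, read 114 and 102 against 122, 89.2 and 85.9 FPKM (limma adjusted p = 0.506) and its samples overlapped. Wt1, a factor of mesothelium and ovarian surface epithelium, was high in every sample, at 111 and 117 and 96.3, 96.3 and 101 FPKM, as was Msln, mesothelin, at 74.4 and 74.6 and 66.2, 78.8 and 65.7 FPKM. Pax8, a marker of tubal and ovarian tumor epithelium, read at most 0.16 FPKM.

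Promoters of the called matrix genes were read from RefSeq (GRCm38.p6, 250 bases before to 50 after each start) for short motifs on both strands, since these genes were called in the same direction. Of the 19 called collagen and matrix glycoprotein genes, 12 matched an entry, with 16 promoters. GGAATG, bound by TEAD factors, was in 4 of the 16 (25.0%), against 12.1% of the 10974 promoters of tested genes and 14.7% of all 32851. TGACTCA, the AP-1 motif, was in 1 (6.25%), against 3.89% and 5.2%. CTTTGAT, bound by TCF and LEF factors, and CACGTG, the E-box, were in none, against 2.45% and 10.1% of promoters of tested genes. Over the 158 promoters of the 128 of 228 higher genes with an entry, the shares were 19.6% for GGAATG and 6.33% for TGACTCA. Over the 67 promoters of the 57 of 96 lower genes with an entry, they were 8.96% and 10.4%. A match is a description of the sequence only. The windows below show 100 bases around the matches in type VI and type III collagen and in Emilin2, on the gene's strand, with the motif in capitals (CATTCC is GGAATG on the other strand). Their positions are chr10:76726082-76726181 for Col6a1 and chr10:76623467-76623566 for Col6a2 (both minus), chr1:45311323-45311422 for Col3a1 (plus) and chr17:71311101-71311200 for Emilin2 (minus), and the motifs begin 90, 115, 168 and 142 bases before the start site.
Col6a1: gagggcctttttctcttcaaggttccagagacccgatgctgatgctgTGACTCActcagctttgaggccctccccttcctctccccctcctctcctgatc
Col6a2: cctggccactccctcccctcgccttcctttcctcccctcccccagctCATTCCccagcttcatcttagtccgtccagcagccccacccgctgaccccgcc
Col3a1: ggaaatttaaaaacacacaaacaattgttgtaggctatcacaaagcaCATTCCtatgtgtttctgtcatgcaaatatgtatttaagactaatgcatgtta
Emilin2: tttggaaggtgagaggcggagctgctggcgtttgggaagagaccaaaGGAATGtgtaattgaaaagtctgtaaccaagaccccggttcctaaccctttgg

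Wnt signalling runs from secreted ligands through Frizzled receptors to beta-catenin, and cells answer it with feedback genes such as Axin2. Of 44 genes for ligands, receptors and secreted inhibitors, 22 were tested, 3 were called higher, none lower, and 10 passed upward and 2 downward at any fold, with a median of 0.35. Over all genes tested, 1.93% were called higher, 9.78% passed upward and 9.89% downward. The downward share of this list, 2 of 22, was near that background. Among the called genes, Fzd9 was tested only because of its level in FAK-R454. The upward count was 7 without FAK-R454 replicate 1 and 5 without replicate 2. The ligand Wnt7b read 8.67 and 10.4 FPKM in FAK-R454 and 3.85, 4.195 and 2.96 FPKM in FAK KO (log2 fold change 1.36, SE 0.15, limma adjusted p = 9.30e-04). Wnt5a, a ligand that acts largely without beta-catenin, read 13.9 and 14.6 against 7.27, 7.66 and 7.395 FPKM and stayed under the fold threshold (log2 fold change 0.92, SE 0.073, limma adjusted p = 1.95e-04). Wnt4 went the other way, at 7.34 and 7.44 against 12.98, 14.2 and 14.2 FPKM (log2 fold change -0.89, SE 0.076, limma adjusted p = 2.60e-04). Both FAK-R454 samples of Wnt4 lay below every FAK KO sample, and the FAK-WT samples lay higher than both lines, at 20.5, 21.3 and 21.9 FPKM.

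The receptor gene Fzd9 read 2.56 and 2.66 FPKM in FAK-R454 against 0.782, 1.14 and 0.763 FPKM in FAK KO (log2 fold change 1.47, SE 0.20, limma adjusted p = 0.00224), and the inhibitor Dkk2 6.55 and 6.69 against 3.99, 2.83 and 2.58 FPKM (log2 fold change 1.08, SE 0.17, limma adjusted p = 0.00444), which fell under the fold threshold without FAK KO replicate 3. Sfrp4, another secreted inhibitor, rose under the fold threshold (log2 fold change 0.98, SE 0.21, limma adjusted p = 0.0144), not without either FAK-R454 sample. Of 19 Wnt target and feedback genes, 8 were tested, 1 was called higher, and 2 passed upward and 1 downward, single genes in a short list beside the 1.93% of all genes called higher and the 9.78% and 9.89% passing. The called gene was Dkk1, which is also a secreted Wnt inhibitor, at 1.22 and 1.04 against 0.137, 0.0632 and 0.191 FPKM (log2 fold change 2.45, SE 0.37, limma adjusted p = 0.00391), a call lost without either FAK-R454 sample. Dkk1 was tested only because of its level in FAK-R454. Rnf43, the ligase that removes Frizzled receptors, fell from 3.74, 4.51 and 4.68 FPKM to 2.13 and 2.09 FPKM (log2 fold change -0.99, SE 0.12, limma adjusted p = 0.00168). Axin2 was under the filter in both lines, with 0.761 and 0.786 FPKM in FAK-R454 and 0.819, 0.8102 and 0.839 FPKM in FAK KO. The FAK-WT samples read 2.02, 2.05 and 2.09 FPKM for Axin2, and FAK-R454 was lower than FAK-WT (log2 fold change -1.30, SE 0.12, limma adjusted p = 0.00584). Myc (37.8 and 38.2 against 38, 35.7 and 36.7 FPKM) overlapped between FAK-R454 and FAK KO, with a log2 change of 0.05 that becomes -0.11 when each chromosome is centred. Ctnnb1, beta-catenin itself, read 139 and 133 against 149, 139.5 and 146 FPKM (limma adjusted p = 0.333).

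**Figure D4:**
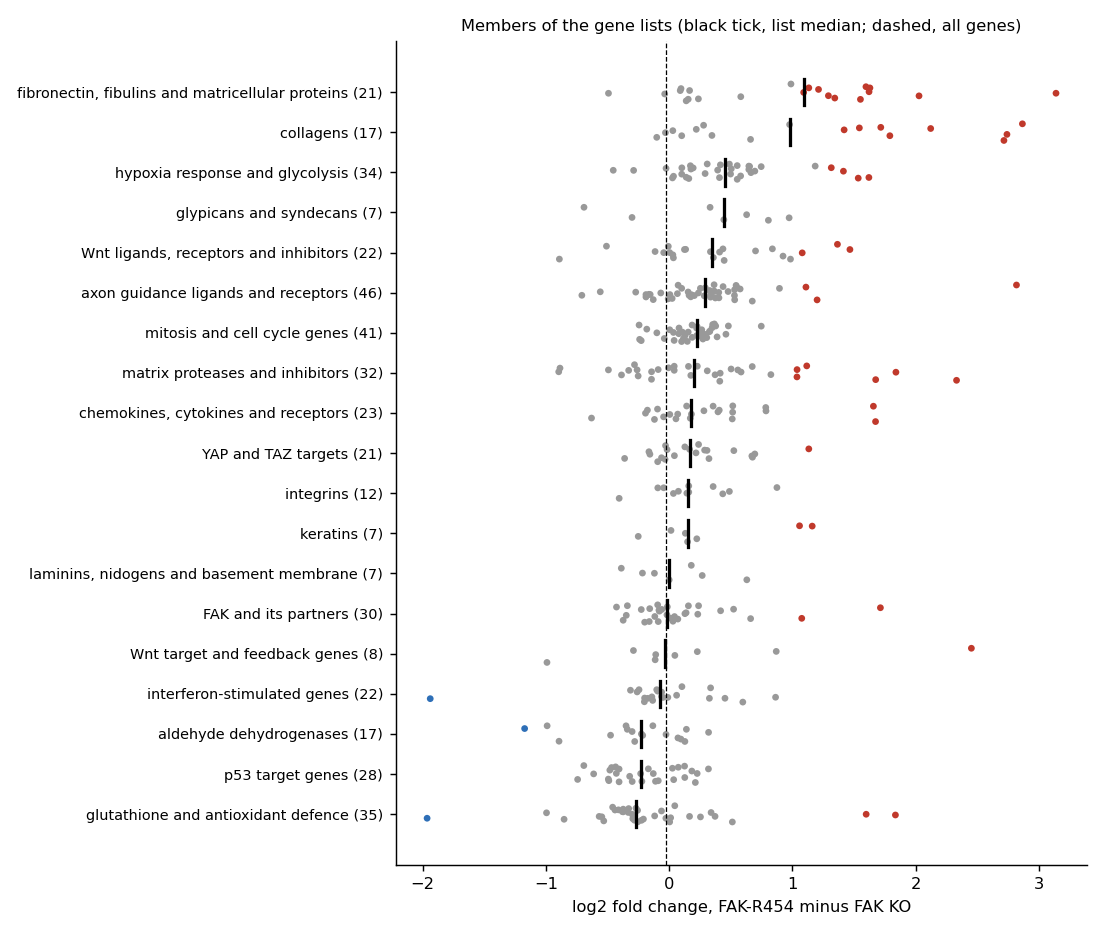
Log2 fold change of FAK-R454 over FAK KO for each tested member of the gene lists. The number of tested genes stands beside each list, a point is 1 gene, red and blue mark genes called higher and lower, the black tick is the list's median and the dashed line the median of all genes tested. The collagen and fibronectin lists have medians near 1, and the other lists drawn here have medians within 0.5 of 0.

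Axon guidance molecules, which also steer adhesion outside nerves, had 46 tested members, of which 3 were called higher, none lower, and 20 passed upward and 2 downward. Of all genes tested, 1.93% were called higher, 9.78% passed upward and 9.89% downward, so the downward count was below the background. Among the called genes, Slit3 was tested only because of its level in FAK-R454. The upward count fell to 7 and 8 without FAK-R454 replicates 1 and 2, and the 3 calls were Slit3, described above, Plxnb3, a semaphorin receptor (6.23 and 5.65 against 2.51, 2.93 and 2.66 FPKM, log2 fold change 1.11, SE 0.11, limma adjusted p = 5.36e-04), and Ephb4, an ephrin receptor (3.72 and 4.06 against 1.66, 1.79 and 1.47 FPKM, log2 fold change 1.20, SE 0.13, limma adjusted p = 8.46e-04). Sema4g, a membrane semaphorin, fell from 89.1, 102 and 101 FPKM to 57.9 and 60.7 FPKM (log2 fold change -0.71, SE 0.075, limma adjusted p = 7.42e-04), and the secreted Sema3g was higher (0.89, limma adjusted p = 0.00612, not passing without FAK-R454 replicate 1).

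Growth factor genes moved in both directions. Of 24 tested EGF, FGF and PDGF family genes, 2 were called higher and 1 lower, and 5 passed in each direction, where 1.93% and 0.812% of all genes tested were called and 9.78% and 9.89% passed. Without FAK KO replicate 2, 9 passed upward and 2 were called lower. Fewer passed upward without either FAK-R454 sample. Pdgfra, the receptor for PDGF on mesenchymal cells, read 8.91 and 8.84 FPKM in FAK-R454 and 3.25, 2.65 and 3.18 FPKM in FAK KO (log2 fold change 1.53, SE 0.11, limma adjusted p = 1.42e-04). The ligand Fgf18 read 2.19 and 2.06 against 0.581, 0.918 and 0.592 FPKM (log2 fold change 1.51, SE 0.23, limma adjusted p = 0.003598), a call lost without FAK-R454 replicate 1. The receptor Fgfr3 fell, at 15.7 and 16.2 against 30.4, 34.8 and 36.9 FPKM (log2 fold change -1.08, SE 0.088, limma adjusted p = 2.08e-04), but fell short of the fold threshold when each chromosome was centred. In each of the 3 genes the samples of the lines did not overlap, and Fgf18 was tested only because of its level in FAK-R454. Of 30 tested BMP and TGF-beta genes, the ligands Bmp5 (1.03 and 0.991 against 0.252, 0.1003 and 0.187 FPKM, log2 fold change 2.02, SE 0.36, limma adjusted p = 0.00701) and Bmp6 (1.27 and 1.47 against 0.414, 0.621 and 0.385 FPKM, log2 fold change 1.38, SE 0.26, limma adjusted p = 0.00899) were called higher, 2 of 30 where 1.93% of all genes tested were. Both were tested only because of their level in FAK-R454, so no result for the list is drawn from this count. Neither kept its call in every fit, since Bmp5 was lost without FAK-R454 replicate 2, and was under the filter without replicate 1, and Bmp6 without either FAK-R454 sample. Gdf15, a stress-induced ligand of the family, was lower at 21.1 and 20.8 against 29.6, 37.6 and 35.2 FPKM (log2 fold change -0.69, SE 0.10, limma adjusted p = 0.00295). Notch3, a receptor of the Notch pathway, read 2.301 and 2.45 against 0.805, 0.806 and 0.822 FPKM (log2 fold change 1.44, SE 0.16, limma adjusted p = 8.32e-04).

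Of 21 tested YAP and TAZ target genes, only Ctgf was called, 6 passed upward and none downward, and the median was 0.17, where 1.93% of all genes tested were called higher and 9.78% passed upward. The upward count fell to 3 and 2 without FAK-R454 replicates 1 and 2, and rose to 9 without FAK KO replicate 1 or 2. Ctgf read 9.76 and 9.57 FPKM against 5.32, 4.76 and 3.26 FPKM (log2 fold change 1.13, SE 0.18, limma adjusted p = 0.00484). It passed in every such fit, but its log2 change fell below the fold threshold without FAK KO replicate 3, whose Ctgf was the lowest of all 5 samples.

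Among 23 tested chemokine and cytokine genes, 2 were called higher, where 1.93% of all genes tested were. Of these, Cxcl5 was tested only because of its level in FAK-R454, so no result for the list is drawn from this count. Cxcr4, the receptor for CXCL12, read 4.75 and 4.6 FPKM in FAK-R454 and 1.49, 1.68 and 1.13 FPKM in FAK KO (log2 fold change 1.66, SE 0.17, limma adjusted p = 6.28e-04). Cxcl5, a neutrophil chemokine, read 1.04 and 1.15 against 0.281, 0.209 and 0.345 FPKM (log2 fold change 1.67, SE 0.29, limma adjusted p = 0.00661), lost without either FAK-R454 sample. Il33, an alarmin cytokine, fell below the fold threshold, at 4.87 and 5.31 against 8.62, 7.64 and 7.56 FPKM (log2 fold change -0.63, SE 0.094, limma adjusted p = 0.00348), and was lost without FAK-R454 replicate 1. Interferon-stimulated genes had 22 tested members, of which 1 passed upward and 1, Oas2, passed downward and was called lower, where 9.78% and 9.89% of all genes tested passed and 0.812% were called lower, so the passing counts were not above the background. Oas2, an antiviral synthetase, read 0.327 and 0.239 against 1.71, 1.13 and 1.29 FPKM (log2 fold change -1.94, SE 0.26, limma adjusted p = 0.00197). It was tested only because of its level in FAK KO. The adhesion receptor Vcam1 read 5.64 and 5.66 against 2.57, 1.896 and 2.37 FPKM (log2 fold change 1.28, SE 0.14, limma adjusted p = 7.83e-04) and Ncam1 32.3 and 35.7 against 17.4, 16.7 and 15.9 FPKM (log2 fold change 1.02, SE 0.075, limma adjusted p = 1.42e-04), and Ncam1 was under the fold threshold without FAK-R454 replicate 2 or FAK KO replicate 3.

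Ptgds, a prostaglandin D synthase, read 17.8 and 17.4 FPKM in FAK-R454 and 3.35, 2.63 and 2.396 FPKM in FAK KO, 6.29-fold on the means (log2 fold change 2.63, SE 0.14, limma adjusted p = 3.27e-05). The FAK-WT samples were far above both, at 72.1, 69.7 and 44.96 FPKM, so FAK-R454 stood between the other lines. Prostaglandin E receptors split, Ptger4 rising to 1.31 and 1.08 FPKM from 0.484, 0.641 and 0.474 (log2 fold change 1.04, SE 0.24, limma adjusted p = 0.01999) and Ptger3 falling to 0.532 and 0.798 FPKM from 1.43, 1.72 and 1.76 (log2 fold change -1.20, SE 0.21, limma adjusted p = 0.00735). The Ptger4 call was lost without either FAK-R454 sample, without FAK KO replicate 1 or 3 and with chromosomes centred, and the Ptger3 call without FAK-R454 replicate 1.

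Of 34 tested glycolytic and hypoxia-induced genes, 4 were called higher, none lower, and 15 passed upward and 1 downward, with a median of 0.45, while 18 did not pass. Of all genes tested, 1.93% were called higher, 9.78% passed upward and 9.89% downward. The called count was 2 without either FAK-R454 sample. The median difference of these genes from their FAK KO mean, on the log2 scale, was 0.43 and 0.48 in the FAK-R454 samples and 0.10, 0.14 and -0.22 in FAK KO replicates 1, 2 and 3. Without FAK KO replicate 3, the median was 0.34 with 13 passing upward. Without FAK-R454 replicate 1 or 2, 5 and 6 passed, and 22 without FAK KO replicate 2. Ndrg1, a stress-response gene, read 31.1 and 33.98 FPKM against 10.9, 15.02 and 7.09 FPKM (log2 fold change 1.62, SE 0.25, limma adjusted p = 0.00429), and Aldoc, an aldolase, 15.7 and 17.6 against 8.24, 7.59 and 4.66 FPKM (log2 fold change 1.31, SE 0.21, limma adjusted p = 0.00505). Both were above every FAK KO sample, including the first 2 replicates. Slc16a3, the lactate exporter, read 8.04 and 7.96 against 3.98, 3.44 and 1.85 FPKM (log2 fold change 1.41, SE 0.27, limma adjusted p = 0.0101), and Ndufa4l2, a hypoxia-induced mitochondrial protein, 39.9 and 43.3 against 20.7, 19.4 and 7.26 FPKM (log2 fold change 1.53, SE 0.38, limma adjusted p = 0.0284). The calls of Slc16a3 and Ndufa4l2 were lost without either FAK-R454 sample.

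Several enzymes of glycolysis that passed below the fold threshold were named after their values were seen. Eno1, enolase, read 801 and 767 FPKM in FAK-R454 and 538, 511 and 441 FPKM in FAK KO (log2 fold change 0.66, SE 0.09, limma adjusted p = 0.00219). Ldha, lactate dehydrogenase, read 587 and 565 against 423, 407 and 332 FPKM (log2 fold change 0.58, SE 0.10, limma adjusted p = 0.00728), and Pgk1, phosphoglycerate kinase, 553 and 579 against 437, 378 and 286 FPKM (log2 fold change 0.65, SE 0.15, limma adjusted p = 0.0226). FAK KO replicate 3 was the lowest sample in all 3 enzymes, and only Eno1 passed without either FAK-R454 sample. Pfkfb3, a regulator of glycolytic flux, moved down (8.44 and 7.799 against 11.3, 10.8 and 11.3 FPKM, log2 fold change -0.45, SE 0.076, limma adjusted p = 0.00587), which was lost without FAK-R454 replicate 2. The metallothioneins Mt1 and Mt2, metal-binding proteins with similar sequences, followed the same sample pattern as the glycolytic genes, with Mt1 at 77.3 and 85.7 against 28.8, 36.7 and 18.3 FPKM (log2 fold change 1.60, SE 0.24, limma adjusted p = 0.00361) and Mt2 at 13.7 and 13.2 against 4.42, 6.07 and 1.86 FPKM (log2 fold change 1.83, SE 0.39, limma adjusted p = 0.0158). Mt2 was lost without either FAK-R454 sample.

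Of 35 tested glutathione and antioxidant genes, 19 passed downward and 4 upward, with a median of -0.27, while Gsta1 was the only one called lower and Mt1 and Mt2 were called higher. Of all genes tested, 9.89% passed downward and 9.78% upward, and 1.93% were called higher and 0.812% lower. The 4 genes passing upward were near that background. Without FAK KO replicate 2, 2 genes of the list were called lower. The downward count was 6 without FAK-R454 replicate 1, 7 without FAK-R454 replicate 2 and 12 without FAK KO replicate 3. Gsta4, a transferase for lipid aldehydes, read 626 and 598 FPKM in FAK-R454 and 1081, 1130 and 1104 FPKM in FAK KO (log2 fold change -0.85, SE 0.062, limma adjusted p = 1.42e-04). Nqo1, the quinone reductase induced by NRF2, read 108 and 114 against 169.9, 159.8 and 157 FPKM (log2 fold change -0.55, SE 0.064, limma adjusted p = 0.00124). Both changes passed in every fit with 1 sample left out. Glutathione synthesis genes Gclc (33.9 and 35.6 against 43.04, 44.3 and 44.02 FPKM, log2 fold change -0.33, SE 0.061, limma adjusted p = 0.00852) and Gclm (13.03 and 14.1 against 19.2, 17.5 and 18.6 FPKM, log2 fold change -0.44, SE 0.075, limma adjusted p = 0.00649) were lower by less, as was Gsr, glutathione reductase (log2 fold change -0.41, SE 0.065, limma adjusted p = 0.00442). Each of the last 3 was lost without at least 1 FAK-R454 sample. Slc7a11, the cystine importer that feeds glutathione synthesis, fell from 7.13, 5.64 and 6.83 FPKM to 3.05 and 3.39 FPKM (log2 fold change -0.99, SE 0.12, limma adjusted p = 0.00137).

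Aldehyde dehydrogenases oxidise reactive aldehydes, and some mark stem-like tumor cells. Of 17 tested, none passed upward, 5 passed downward and 1 was called lower, with a median of -0.23, where 9.89% of all genes tested passed downward and 0.812% were called lower. The passing count was 3 without FAK-R454 replicate 2 and 7 without FAK KO replicate 2, and 2 genes were called lower in each of these fits. The called gene was Aldh1a1, which makes retinoic acid, at 34.2 and 34.97 FPKM in FAK-R454 and 80.96, 73.4 and 80.2 FPKM in FAK KO (log2 fold change -1.17, SE 0.068, limma adjusted p = 5.93e-05). Its close paralog Aldh1a7 read 15.3 and 16.7 against 32.9, 30.4 and 32.4 FPKM (log2 fold change -0.99, SE 0.073, limma adjusted p = 1.42e-04), and reads shared between them may have been split. Aldh1b1, a mitochondrial member, read 0.987 and 0.879 against 1.75, 1.85 and 1.85 FPKM (log2 fold change -0.89, SE 0.15, limma adjusted p = 0.00649) and was lost without FAK-R454 replicate 2. Cd24a, a surface glycoprotein of epithelial progenitors, fell to 1.59 and 2.42 FPKM from 5.39, 4.61 and 4.71 (log2 fold change -1.27, SE 0.17, limma adjusted p = 0.00214), a change just under the fold threshold without FAK-R454 replicate 1.

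**Figure D5:**
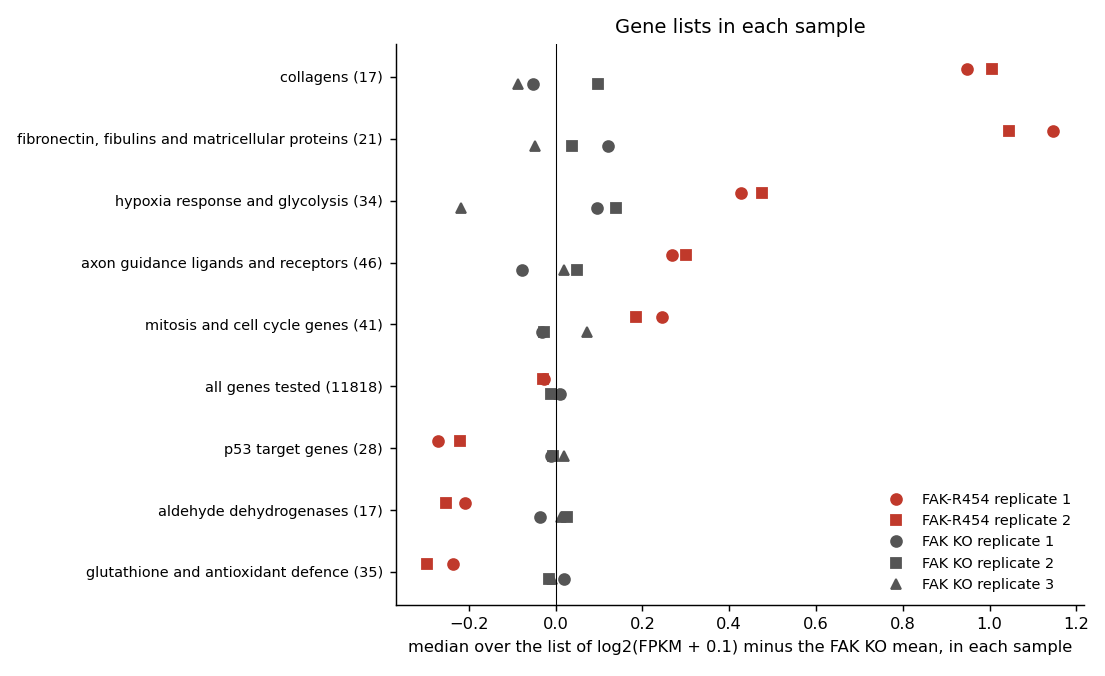
For each gene list, the median over its tested genes of log2(FPKM + 0.1) minus the gene's FAK KO mean, 1 point per sample, for the FAK-R454 and FAK KO samples. The hypoxia and glycolysis list reads 0.43 and 0.48 in FAK-R454 and -0.22 in FAK KO replicate 3, below the 0.10 and 0.14 of the other FAK KO samples.

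No p53 target gene and no gene of the mitosis and cell cycle list was called, where 1.93% of all genes tested were called higher and 0.812% lower. For lists of this size, an absence of calls is near that background. Of 28 tested p53 targets, 13 passed downward, 2 passed upward and 13 did not pass, with a median of -0.23, where 9.89% of all genes tested passed downward and 9.78% upward. The downward count was 2 without FAK-R454 replicate 1, 5 without FAK-R454 replicate 2 and 9 without FAK KO replicate 3. Cdkn1a, the cell cycle inhibitor p21, read 78.5 and 77.2 FPKM in FAK-R454 and 97.9, 112 and 105 FPKM in FAK KO (log2 fold change -0.43, SE 0.071, limma adjusted p = 0.00552), and Mdm2, the p53 ligase, 27.3 and 28.8 against 40.1, 35.3 and 38.6 FPKM (log2 fold change -0.43, SE 0.075, limma adjusted p = 0.00649). Both were lost without either FAK-R454 sample. Pmaip1, which encodes the death factor Noxa, read 2.45 and 2.49 against 4.49, 3.97 and 4.16 FPKM (log2 fold change -0.74, SE 0.10, limma adjusted p = 0.00264) and passed in every such fit. Of 41 tested mitosis and cell cycle genes, 11 passed upward, none downward and 30 did not pass, with a median of 0.22, beside the 9.78% of all genes that passed upward. The count was 0 without FAK-R454 replicate 1, 1 without FAK-R454 replicate 2, 7 without FAK KO replicate 1, 17 without FAK KO replicate 2 and 2 without FAK KO replicate 3. Aurkb, a mitotic kinase, read 16.3 and 15.6 against 11.4, 13.2 and 12.3 FPKM (log2 fold change 0.38, SE 0.082, limma adjusted p = 0.01699) and Mki67, a proliferation marker, 9.35 and 9.15 against 7.52, 7.55 and 8.003 FPKM (log2 fold change 0.26, SE 0.076, limma adjusted p = 0.0436). Neither passed without either FAK-R454 sample or FAK KO replicate 3. Ccnd1, cyclin D1, read 72.3 and 76.04 against 78.7, 82.6 and 79.4 FPKM (limma adjusted p = 0.213), whereas Ccnd2 fell from 117, 113 and 111 FPKM to 81.5 and 82 FPKM (log2 fold change -0.48, SE 0.058, limma adjusted p = 0.00147).

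Genes of cell identity changed in a few members, with 2 of 7 keratins and 2 of 8 mesothelial and ovarian surface markers called higher, where 1.93% of all genes tested were. Of these markers, Lrrn4 was tested only because of its level in FAK-R454, so no result for that list is drawn from its count. Among 7 tested keratins, Krt14, a basal keratin, read 22.8 and 24.7 FPKM in FAK-R454 and 11.3, 11.7 and 11.2 FPKM in FAK KO (log2 fold change 1.06, SE 0.07, limma adjusted p = 1.10e-04), and Krt15 3.897 and 3.96 against 1.92, 1.51 and 1.702 FPKM (log2 fold change 1.16, SE 0.13, limma adjusted p = 0.00112). Krt8, a simple epithelial keratin, did not pass (379 and 361 against 289, 341 and 322 FPKM, limma adjusted p = 0.0823). Among 8 tested mesothelial and ovarian surface markers, Upk3b and Lrrn4 were called higher and Upk1b rose under the fold threshold (16.5 and 16.8 against 11.5, 11.1 and 10.6 FPKM, log2 fold change 0.59, SE 0.072, limma adjusted p = 0.00141). Lrrn4 stood at 1.16 and 1.11 against 0.304, 0.32 and 0.164 FPKM (log2 fold change 1.8, SE 0.31, limma adjusted p = 0.00684) and lost its call without either FAK-R454 sample. Snai1, a repressor of epithelial genes, read 13.02 and 14.8 against 6.15, 7.57 and 6.61 FPKM (log2 fold change 1.03, SE 0.11, limma adjusted p = 6.53e-04), and its change was under the fold threshold without FAK-R454 replicate 2 or FAK KO replicate 1. Cdh1, E-cadherin, was at most 0.165 FPKM in these samples, and Cdh2, N-cadherin, read 24.6 and 24.3 against 27.1, 24.7 and 26.2 FPKM (log2 fold change -0.09, limma adjusted p = 0.379), a difference whose sign turns when each chromosome is centred. Mylk, myosin light chain kinase, was higher at 3.68 and 4.26 against 1.72, 1.79 and 1.63 FPKM (log2 fold change 1.16, SE 0.13, limma adjusted p = 7.83e-04).

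To place these genes, FAK-R454 was also tested against FAK-WT. The tests against FAK KO and against FAK-WT share the FAK-R454 samples, so their values are given side by side only. Of 11782 genes tested, 88 were higher in FAK-R454 than in FAK-WT (0.747%) and 82 lower (0.696%). Without FAK-R454 replicate 1 these counts were 3 and 4, without FAK-R454 replicate 2 they were 4 and 4, and without FAK-WT replicate 2 they were 51 and 30, so calls against FAK-WT rest on having both FAK-R454 samples. Of the 38 named genes that passed against FAK-WT, Col6a1, Penk, Try5 and Wnt4 passed with any 1 sample left out, and the other 34 were lost without either FAK-R454 sample. Of the 228 genes higher in FAK-R454 than in FAK KO, 28 were also called above FAK-WT and 5 were called below it, while 163 passed against FAK-WT in neither direction at any fold (4.44% of all genes passed upward and 3.38% downward), which does not show that they were equal. Of the 96 lower genes, 68 were tested against FAK-WT, 12 were called below it and 7 above it. Both tests use the same FAK-R454 samples, so genes chosen as high or low in them tend to be called the same way against FAK-WT. No result is drawn from these counts.

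Some genes were highest in FAK-R454 of the 3 lines. Eln read 0.857, 0.923 and 0.604 FPKM in FAK-WT, less than in either FAK-R454 sample (log2 fold change 2.27, SE 0.19, limma adjusted p = 0.004103), and Upk3b 7.03, 9.4 and 5.96 FPKM (log2 fold change 2.09, SE 0.18, limma adjusted p = 0.004103). Unc45b read 0.0808, 0.126 and 0.107 FPKM in FAK-WT (log2 fold change 2.72, SE 0.29, limma adjusted p = 0.00832) and Itm2a 1.75, 2.46 and 1.97 FPKM (log2 fold change 1.34, SE 0.16, limma adjusted p = 0.0119). The next 5 genes were chosen after their values were seen. Penk, the enkephalin precursor, read 48.7 and 46.7 FPKM in FAK-R454, 10.1, 9.03 and 8.26 FPKM in FAK KO (log2 fold change 2.38, SE 0.091, limma adjusted p = 1.07e-05) and 7.89, 8.97 and 7.602 FPKM in FAK-WT (log2 fold change 2.54, SE 0.081, limma adjusted p = 3.58e-04). Timp4 read 1.56, 1.29 and 0.764 FPKM in FAK-WT (log2 fold change 3.51, SE 0.28, limma adjusted p = 0.00357). Penk samples overlapped between FAK KO and FAK-WT, Timp4 was lower still in FAK-WT, and both genes were high in both FAK-R454 samples. Tnni1, a slow muscle troponin, read 4.03 and 4.24 FPKM in FAK-R454 against 0.509, 0.873 and 0.946 FPKM in FAK KO (log2 fold change 2.31, SE 0.24, limma adjusted p = 6.42e-04) and 1.04, 1.35 and 1.33 FPKM in FAK-WT (log2 fold change 1.67, SE 0.14, limma adjusted p = 0.004103). Irf5, an interferon regulatory factor, read 4.34 and 4.23 FPKM against 0.608, 0.702 and 0.462 FPKM in FAK KO (log2 fold change 2.68, SE 0.19, limma adjusted p = 1.35e-04) and 1.44, 1.45 and 0.938 FPKM in FAK-WT (log2 fold change 1.70, SE 0.20, limma adjusted p = 0.0102). Pgc, a pepsinogen, read 2.96 and 1.82 FPKM against 0.335, 0.249 and 0.335 FPKM (log2 fold change 2.58, SE 0.27, limma adjusted p = 7.32e-04) and 0.145, 0.161 and 0.161 FPKM in FAK-WT (log2 fold change 3.25, SE 0.28, limma adjusted p = 0.00416).

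Other genes were lowest in FAK-R454. Arhgap40 read 0.866 and 0.7301 FPKM in FAK-R454, 2.72, 2.82 and 2.76 FPKM in FAK KO (log2 fold change -1.68, SE 0.14, limma adjusted p = 2.60e-04) and 2.202, 2.69 and 2.31 FPKM in FAK-WT (log2 fold change -1.48, SE 0.15, limma adjusted p = 0.00698). Pip5k1b read 0.602 and 0.577 FPKM against 2.01, 2.16 and 1.86 FPKM in FAK KO (log2 fold change -1.61, SE 0.16, limma adjusted p = 6.19e-04) and 1.42, 1.42 and 1.26 FPKM in FAK-WT (log2 fold change -1.09, SE 0.16, limma adjusted p = 0.0185). Oas2 and Wnt4 were lower than in FAK-WT as well, with log2 changes of -1.73 and -1.51 (limma adjusted p = 0.0296 and 4.07e-04). In these 4 genes both FAK-R454 samples were below every sample of the other lines.

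A further set stood between FAK KO and FAK-WT. For the matrix genes Emilin2 and Col3a1, FAK-WT read 13.5, 12.9 and 11.8 FPKM and 33.4, 40.02 and 39.4 FPKM, and FAK-R454 was lower than FAK-WT by log2 changes of -1.08 (limma adjusted p = 0.00318) and -0.57 (limma adjusted p = 0.02396) while higher than FAK KO. Krt14 read 42.5, 49.8 and 67.6 FPKM in FAK-WT (log2 fold change -1.14, SE 0.18, limma adjusted p = 0.0239), and Ptgds was lower than in FAK-WT by a log2 change of -1.79 (limma adjusted p = 0.00936). Running the other way, Try5 read 4.73, 4.65 and 5.45 FPKM in FAK-WT, Try4 2.34, 1.91 and 1.03 FPKM and Abat 0.514, 0.394 and 0.185 FPKM, all less than in FAK-R454, with log2 changes over FAK-WT of 4.75, 3.28 and 2.13 (limma adjusted p = 1.49e-05, 0.00578 and 0.0243). On the log2 scale, Try5 in FAK-R454 lay closer to FAK KO than to FAK-WT. By contrast, Muc5ac at 63.2, 61.8 and 48.6 FPKM, Gsta1 at 40.8, 37.04 and 39.4 FPKM and Col1a1 at 7.57, 8.04 and 11.8 FPKM in FAK-WT did not pass against FAK-R454 (limma adjusted p = 0.501, 0.149 and 0.63).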

How the data were processed

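RNA was extracted from tumorspheres and its poly-A fraction sequenced as paired-end reads. The authors deposited 1 table of FPKM values per gene, and the submitters' processing notes name CASAVA 1.8, STAR 2.5, DESeq2 and the mm10 build. The methods name TopHat2 as the aligner instead, and how reads shared by paralogs were counted is not given in the sources used here. Groups were taken from the sample labels, which gave 2 FAK-R454 samples, 3 FAK KO samples and 3 FAK-WT samples for the lines tested.

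Values of genes with a mean above 1 FPKM in at least 1 of the lines compared were put on the log2(FPKM + 0.1) scale and tested with limma 3.58.1 (R 4.3.3, trended empirical Bayes, Benjamini-Hochberg adjustment over all genes tested), each pair of lines fitted alone. A call needed an adjusted p under 0.05, a log2 fold change of at least 1 in size and a mean above 1 FPKM in the higher line. No exact permutation of 2 against 3 samples can reach a p below 0.1, so none is given. Counts of fragments were recovered from the FPKM steps and used in limma-voom as an alternative. Gene lists, and the rule naming the 15 largest changes each way and, for each list, the called members and the highest and lowest member, were set with earlier results of these data known. The 15 largest changes were taken without symbols of predicted or unnamed gene models. A further group of genes was named after its values were seen, namely Timp4, Penk, Tnni1, Pgc and Irf5, and list members that passed below the fold threshold. Positions are from GENCODE M21 (GRCm38) and promoters from RefSeq (GRCm38.p6).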

Additional observations from a re-analysis of the deposited data

How the results depend on the processing

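Against FAK KO, the counts of called genes were 108 higher and 37 lower with a pseudocount of 1, 89 and 40 with a minimum of 5 FPKM, 599 and 431 with a log2 fold threshold of 0.5, and 1156 and 1169 with none. Leaving out 1 sample gave 148 to 256 higher and 81 to 116 lower. Pseudocount 0.01, no filter, median-of-ratios scaling, centring of chromosomes, no trend, a fit on all 5 lines and limma-voom stayed within 1.5 times. Median-of-ratios scaling changed the split at any fold to 1251 higher and 1034 lower, 54.7% higher in place of 49.7%. Against FAK-WT, leaving out 1 sample gave 3 to 111 higher and 4 to 109 lower. The causes of these shifts were not tested, beyond fewer genes or samples entering.

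Median log2 changes after centring each chromosome were -0.011 for all genes, 0.044 for FAK and its partners, 0.091 for laminins, 0.39 for glypicans and syndecans, -0.14 for Wnt targets, 0.24 for Wnt ligands and receptors, 0.31 for chemokines and 0.067 for keratins. With the filter on the mean of all samples they were 0.66 for collagens and 0.0897 for laminins. Leaving out 1 sample gave medians of -0.042 to 0.0093 for FAK and its partners, 0.10 to 0.20 for integrins, 0.80 to 1.16 for collagens, -0.085 to 0.054 for laminins, 0.98 to 1.15 for fibronectin and matricellular genes, 0.40 to 0.53 for glypicans, 0.084 to 0.22 for YAP and TAZ targets, 0.29 to 0.37 for Wnt ligands, -0.27 to -0.21 for p53 targets, 0.16 to 0.34 for chemokines and -0.30 to -0.24 for glutathione genes. Cdh2 (0.0165) and Myc (-0.11) changed sign after centring chromosomes.

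Deviations of samples with the same replicate number had correlations of -0.09 and -0.06 for the pairs that exist, and FAK KO replicate 3 has no partner. The 2 FAK-R454 samples deviate from their mean as mirror images, so these values cannot show or exclude a pairing. The main fits took the samples as unpaired. With a replicate block 232 genes were higher and 97 lower than in FAK KO, and 112 and 110 against FAK-WT. Of 43 named genes tested against FAK-WT, 4 became stronger with the block and none weaker. Of 163 named genes passing against FAK KO, 63 and 60 were lost without FAK-R454 replicates 1 and 2, 21 and 6 without FAK KO replicates 3 and 1, 27 with no filter, 18 in 1 fit of all 5 lines, 12 with no trend, 10 with the replicate block, 6 with chromosomes centred, 1 with median-of-ratios scaling, and none without FAK KO replicate 2, with a pseudocount of 1 or 0.01 or limma-voom. Of the 189 named genes tested, 169 could be fitted with the filter on all samples, where 1 was lost, and 130 with a minimum of 5 FPKM, where none of those fitted was lost. Below about 2 FPKM, depth limits the precision of a fold change.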
